A study of Rattus norvegicus with 12 samples.

Results

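The miR-30 family is a group of microRNAs (miRNAs) that share the same seed, the short stretch near the 5′ end by which a miRNA pairs with its target mRNAs. The 5 guide strands described here, rno-miR-30a, rno-miR-30b-5p, rno-miR-30c, rno-miR-30d and rno-miR-30e, were chosen by name from the 677 rat miRNAs of the array. Their passenger strands, the opposite arms of the same hairpins, were kept apart and are described beside them. The measurements came from soleus muscle of 12 male Sprague-Dawley rats at the age of 1 year, each on 1 Agilent array with 1 colour. The control group held 6 offspring of dams on standard chow, and the high fat group held 6 offspring of dams on a diet rich in saturated fat and sucrose, given before mating and until the pups were weaned. All offspring were themselves fed chow after weaning, so the diet of the dam was the only labelled difference between the groups. The study used these offspring to look for miRNAs in muscle that is insulin resistant without obesity. Neither the labels nor the methods say which rats shared a dam, so the p-values below measure the spread between rats and take each rat as independent.

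A miRNA hairpin is cut into 2 short strands. One of them, the guide, is loaded into the Argonaute protein and directs it to mRNAs that carry a match to the seed, which lowers the stability or the translation of those mRNAs. The other strand, the passenger, is mostly degraded. The miR-30 family is made from pairs of neighbouring genes and is known in muscle and heart for restraining connective tissue growth factor, a matrix-inducing protein, and for its rise as muscle precursor cells differentiate. Soleus is a postural muscle composed mainly of slow oxidative fibres.

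The sequences of the guides are shown first because the members differ outside the seed, and a single base separates miR-30a from miR-30e, which stood at opposite ends in 1 rat. Mature sequences were taken from RefSeq on the build GRCr8, in which 3 of the 5 guides were matched by name, with the seed, bases 2 to 8, in capitals. rno-miR-30a is encoded at chr9:33233946-33233967 (plus strand), rno-miR-30e at chr5:139637504-139637525 (minus strand), and rno-miR-30c at chr5:139634505-139634527 (minus strand) and again at chr9:33253695-33253717 (plus strand). rno-miR-384-5p, at chrX:74490939-74490961 (minus strand), is shown because it holds the same seed under another name.
rno-miR-30a: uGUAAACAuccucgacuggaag
rno-miR-30e: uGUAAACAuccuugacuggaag
rno-miR-30c: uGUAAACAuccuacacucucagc
rno-miR-384-5p: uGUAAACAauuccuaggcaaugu

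Among the 692 mature rat sequences of the table, which is not complete, the 4 distinct sequences above held the seed GUAAACA. Counted from 1 at the 5′ end, with the base of miR-30a first, miR-30a and miR-30e differed by 1 substitution, C13U, and whether the array probe of either also binds the other was not tested. miR-30a and miR-30c differed by 5 substitutions, C13A, G14C, G18C, G19U and A20C, and miR-30c is 1 base longer. Differences between miR-384-5p and the 3 miR-30 guides numbered between 10 and 12. miR-384-5p was detected on 0 of the 12 arrays.

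The genes stand in pairs. Mir30a and Mir30c2 neighbour each other on chromosome 9 with 0 genes between them, Mir30c1 and Mir30e lie within the protein-coding gene Nfyc on chromosome 5, and Mir30b and Mir30d lie within the long non-coding RNA gene LOC102551574 on chromosome 7. miR-30c is therefore cut from 2 hairpins whose guides are identical, and the array signal of miR-30c cannot be divided between them. The hairpins of Mir30c1 (chr5:139634455-139634543, minus strand) and Mir30c2 (chr9:33253682-33253765, plus strand) are shown with that shared guide in capitals.
Mir30c1: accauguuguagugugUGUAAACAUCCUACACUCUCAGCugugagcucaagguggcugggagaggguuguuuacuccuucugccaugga
Mir30c2: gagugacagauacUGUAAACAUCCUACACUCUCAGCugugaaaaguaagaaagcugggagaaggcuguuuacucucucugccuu

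The passenger strands of these hairpins differ in sequence between the genes. They are shown with their own bases 2 to 8 in capitals, for miR-30a* (chr9:33233987-33234008, plus strand), miR-30c-1* (chr5:139634467-139634488, minus strand) and miR-30c-2* (chr9:33253735-33253756, plus strand).
miR-30a*: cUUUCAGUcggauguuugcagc
miR-30c-1*: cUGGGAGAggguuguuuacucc
miR-30c-2*: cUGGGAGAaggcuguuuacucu

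miR-30c-1* and miR-30c-2* differed by 3 substitutions, G9A, U12C and C22U, counted from the 5′ end with miR-30c-1* first. Their bases 2 to 8 were the same, so these 2 passengers share a seed with each other but not with the guides. Whether the array probe of either passenger also binds the other was not tested.

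All 5 guides were detected on all 12 arrays, and 162 of the 677 miRNAs were. Signals were the scanner software's total signal per miRNA. Each array was divided by its 75th percentile over those 162 miRNAs, which ran from 864 to 1911 signal units before scaling, and all arrays were returned to signal units by 1 common factor. Scaled signals were floored at 5.17 signal units and put on the log2 scale for the tests. Of the 2 slides, each carried 3 control and 3 high fat rats. The muscle miRNAs miR-1, miR-133a, miR-133b and miR-206 were detected on all arrays, with a summed scaled signal of 142443 to 280572 over the 12 rats. Of the neuronal miRNAs, miR-124 was detected on no array and miR-9 on 1. Of 7 liver and epithelial miRNAs, miR-192 was detected on all 12 arrays, miR-122 on 10, at up to 406 signal units, and miR-200c, miR-141 and miR-429 on none. One high fat rat, H3 on slide 1, stood apart. Its summed slow fibre miRNAs, miR-499 and miR-208b-3p, reached 366 signal units against 5085 to 8061 in the other 5 high fat rats and 4588 to 9249 in control rats, and its miR-208b-3p was not detected. Its summed vessel wall and endothelial miRNAs, all 4 lower than in any other high fat rat, came to 4980 against 9205 to 12143 in those rats and 10332 to 12467 in control rats. Its 6 blood cell miRNAs summed to 4515 against 1939 to 3370 in the other high fat rats, within the 2304 to 4518 of control rats, and its miR-451 was the highest (3054) and its miR-150 the lowest (304) of the 12. Among the muscle miRNAs, its miR-206 was the lowest of the 12, at 9354 against 30841 to 60699 in the other high fat rats, and its miR-1 the highest, at 136123. The epithelial miR-200a and miR-200b were detected in H3 alone, at 12.2 and 8.82. H3 is labelled as soleus, and the low or undetected slow fibre miRNAs go against that label for a slow muscle, so it is called here by its label alone. Results that rest on H3 are therefore given with and without it.

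No difference in the miR-30 guides between offspring of control and high fat-fed dams was detected by limma. Under the scaling given above, the main scaling, 4 of the 5 mean differences were smaller than 0.08 on the log2 scale. With no scaling those 4 lay between 0.24 and 0.31. In the bulk muscle RNA measured here, fewer cells of a type and less RNA per cell cannot be told apart. limma gave adjusted p under 0.05 for 0 of the 193 miRNAs detected on at least 6 arrays (0%), and for 0 of the 5 guides. An unadjusted p under 0.05 was given for 2 of the 193 (1.04%) and for 0 of the guides. Groups did not overlap for 0 of the 193 (0%), and they overlapped for all 5 guides.

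miR-30a, made from the chromosome 9 pair, had scaled signals of 5749 to 8164 in the 6 control rats (median 6387) and of 4792 to 9031 in the 6 high fat rats (median 6767). The high fat rats spanned both the lowest and the highest value of the 12. The mean was 6854 ± 1039 (SD, n = 6) in control rats and 6960 ± 1652 (SD, n = 6) in high fat rats. The log2 difference, high fat minus control, was 0.00075 ± 0.18 (SE), with a 95% confidence interval of -0.38 to 0.38 (limma, adjusted p = 0.997).

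miR-30c, which is encoded beside miR-30a through Mir30c2 and beside miR-30e through Mir30c1, had values of 5096 to 7902 in control rats (median 5582) and 4332 to 7628 in high fat rats (median 5934). The means were 6168 ± 1288 and 5854 ± 1089 (SD, n = 6 each). The median was higher and the mean lower in high fat rats. The log2 difference was -0.072 ± 0.17 (SE), with a 95% interval of -0.44 to 0.30 (limma, adjusted p = 0.913). Without H3, and with the arrays scaled anew, it was 0.0040 (limma, adjusted p = 0.995). With the scaling kept, it was -0.078 without H3.

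miR-30e, the partner of Mir30c1 inside Nfyc, had values of 4367 to 5590 in control rats (median 4902) and 2444 to 5655 in high fat rats (median 4295). Rat H3 gave the lowest value, and the other 5 high fat rats ranged from 3752 to 5655. The means were 4958 ± 552 and 4287 ± 1145 (SD, n = 6 each). The log2 difference of -0.25 ± 0.19 (SE) was the most negative of the 5 guides, with a 95% interval of -0.66 to 0.16 (limma, adjusted p = 0.685). Without H3, and with the arrays scaled anew, it was -0.018 (limma, adjusted p = 0.992). Without H3 but with the scaling kept, it was -0.10.

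miR-30b-5p, of the chromosome 7 pair, had values of 2170 to 3461 in control rats (median 2296) and 2239 to 2937 in high fat rats (median 2570). Both the lowest and the highest value belonged to control rats. The means were 2611 ± 565 and 2553 ± 286 (SD, n = 6 each), and the log2 difference was -0.014 ± 0.15 (SE), with a 95% interval of -0.35 to 0.32 (limma, adjusted p = 0.985). That difference was 0.026 without H3 with the arrays scaled anew, and -0.056 without H3 with the scaling kept.

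miR-30d, its partner on chromosome 7, had values of 863 to 1346 in control rats (median 1017) and 780 to 1401 in high fat rats (median 1013). The high fat rats again held both extremes, with C25 at the bottom and H3 at the top. The means were 1059 ± 186 and 1048 ± 226 (SD, n = 6 each), and the log2 difference was -0.025 ± 0.17 (SE), with a 95% interval of -0.39 to 0.34 (limma, adjusted p = 0.977). Signals of different miRNAs come from different probes, so the guides are not ranked against each other by level.

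**Figure D1:**
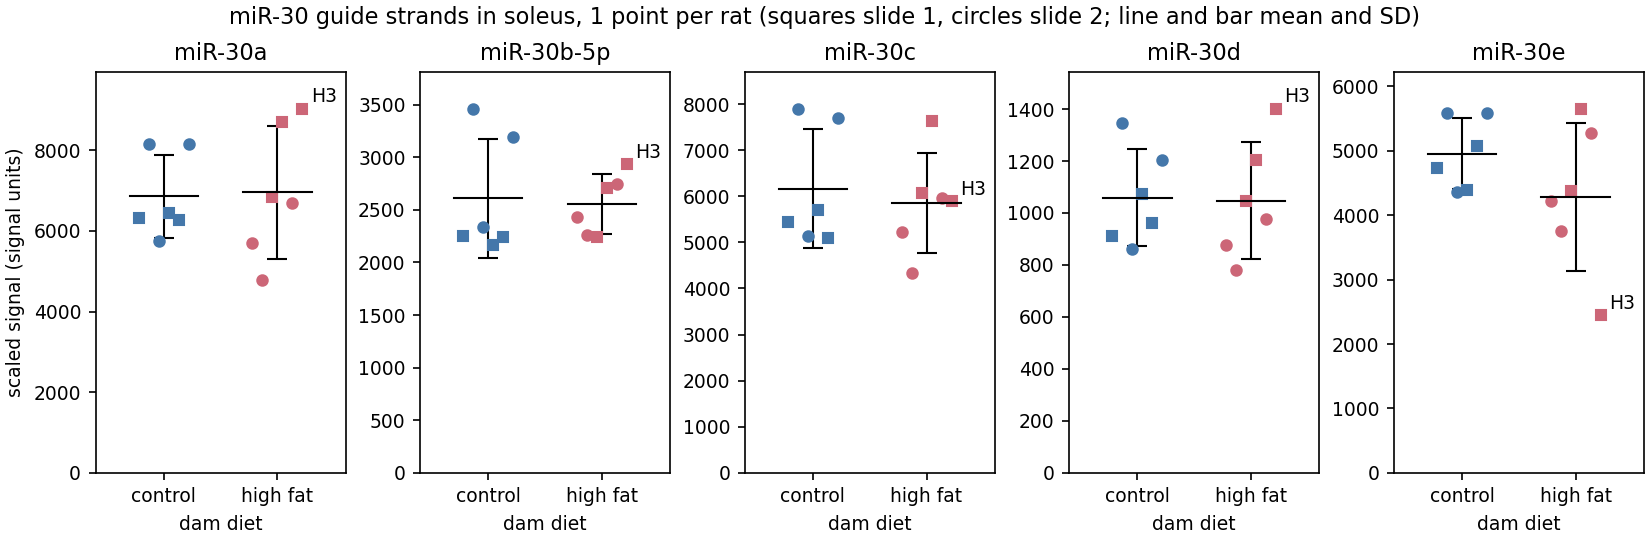
Scaled signal (signal units, vertical axes from 0) of each miR-30 guide strand by dam diet, 1 point per rat, squares for slide 1 and circles for slide 2, with the mean as a line and the SD as a bar (n = 6 per group). The groups overlap in every panel, and rat H3 is the highest of the 12 rats for miR-30a and miR-30d and the lowest for miR-30e.

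For single guides, p ranged from 0.214 (miR-30e) to 1 (miR-30a) when all 924 ways of dividing the rats were enumerated (exact permutation test, two-sided). Keeping each rat within its slide, which leaves 400 ways, gave p from 0.235 to 1. Over the 193 miRNAs tested, the mean was lower in high fat rats for 154 (79.8%), with a median log2 difference of -0.17, under the main scaling. That split depended on the scaling and on H3. The number lower was 94 of 193 with the percentile of all miRNAs, 93 with centring on the median, 100 after quantile normalization, 122 with division by the summed signal and 40 with no scaling. Without H3, and scaled anew, it was 121 of 191, with a median of -0.034. Of the 5 guides, 4 were lower and 1 was higher, with a median of -0.025. Relative to the median of all tested miRNAs, miR-30a, miR-30b-5p, miR-30c and miR-30d were higher by 0.17, 0.15, 0.096 and 0.14, and miR-30e was lower, at -0.085. The direction of the differences depended on the scaling of the arrays. With no scaling, the log2 differences were 0.31, 0.30, 0.24 and 0.28 for miR-30a, miR-30b-5p, miR-30c and miR-30d and 0.057 for miR-30e, and the median of all tested miRNAs was 0.14. Relative to that median they took the values of the main scaling, since dividing an array by 1 number moves all its miRNAs together. Without H3 and with new scaling, all 5 guides lay between 0.0015 and 0.060 above the median of the tested miRNAs. Without H3 but with the scaling kept, the log2 differences were -0.081 for miR-30a and -0.056 for miR-30b-5p. For miR-30c, miR-30d and miR-30e they were then -0.078, -0.11 and -0.10. The guides together made up 4.24 ± 0.28% (SD, n = 6) of the summed signal of the detected miRNAs in control rats, from 3.81 to 4.54%, and 4.37 ± 0.36% (SD, n = 6) in high fat rats, from 3.75 to 4.74%.

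**Figure D2:**
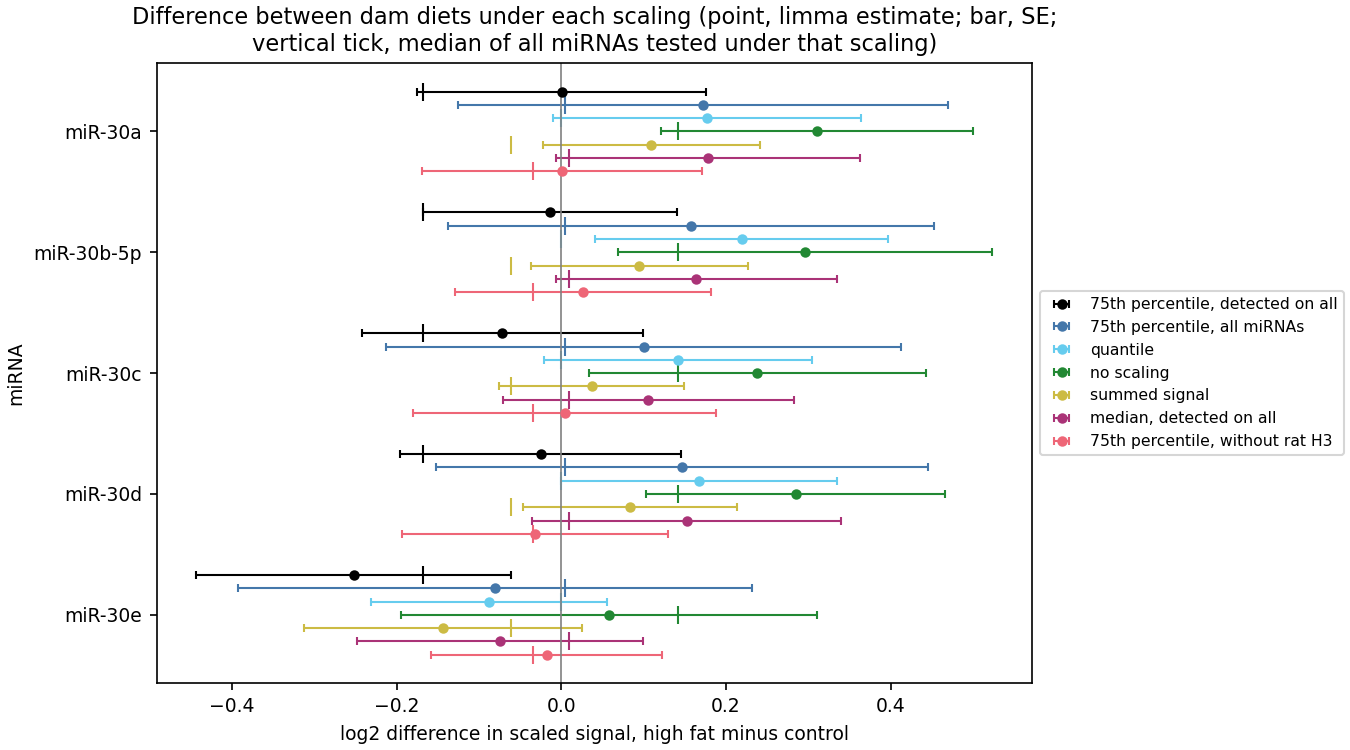
Log2 difference in signal between high fat and control rats (horizontal axis) for the 5 miR-30 guides (vertical axis), with the limma estimate as a point and its SE as a bar for each scaling of the arrays, and with the median of all tested miRNAs under that scaling as a vertical tick. Points and ticks move together from -0.17 for the median under the main scaling to 0.14 with no scaling, and miR-30e stays below its tick except without rat H3.

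Within the slides, 4 guides took opposite directions under the main scaling. These guides varied together over the 12 rats, with r between 0.73 and 0.96, and are not 4 separate signs. On slide 1 the log2 difference, high fat minus control, was 0.36 for miR-30a, 0.23 for miR-30b-5p, 0.26 for miR-30c and 0.30 for miR-30d. On slide 2 it was -0.35, -0.26, -0.40 and -0.35 for the same guides. Without H3, and with the scaling kept, the differences of these guides on slide 1 were 0.28, 0.15, 0.33 and 0.20. miR-30e was lower on both slides, at -0.27 and -0.24, but on slide 1 without H3, with the scaling kept, it was 0.073. The directions on slide 2 depended on the scaling. For miR-30a, miR-30b-5p, miR-30c and miR-30d the differences there stayed negative with the percentile of all miRNAs, at -0.20, -0.10, -0.25 and -0.20. With centring on the median they were -0.12, -0.022, -0.17 and -0.12, and after quantile normalization -0.11, 0.014, -0.14 and -0.12. In the same order of scalings, miR-30e was at -0.078, 0.0016 and -0.025 on slide 2. With no scaling the differences on slide 1 were 0.61, 0.49, 0.51 and 0.56 for miR-30a, miR-30b-5p, miR-30c and miR-30d and -0.015 for miR-30e, and on slide 2 they were 0.012, 0.11, -0.039 and 0.012 for the same guides and 0.13 for miR-30e. With division by the summed signal, those on slide 2 were -0.049, 0.045, -0.10 and -0.049, and 0.069 for miR-30e. A diet by slide interaction, added after these values were seen, was fitted in limma across the 193 miRNAs. It gave an adjusted p under 0.05 for 0 of 193 (0%) and an unadjusted p under 0.05 for 21 (10.9%). Among the guides, miR-30a, miR-30c and miR-30d had an unadjusted p under 0.05, and without H3 only miR-30c did, beside 23 of the 193 miRNAs (11.9%). Under the 5 other scalings, none of the guides had an unadjusted p under 0.05 for the interaction, and 5 to 32 of the 193 miRNAs did. The change from slide 1 to slide 2 in miR-30a was -0.71 ± 0.28 (SE; 95% interval -1.33 to -0.087; limma, adjusted p = 0.377). Without H3 it was -0.63 (limma, adjusted p = 0.334). The median of the tested miRNAs was -0.18 on slide 1, or -0.021 without H3, and -0.20 on slide 2. Of the 193 tested miRNAs, 66 were higher in high fat rats on slide 1, or 95 without H3, and 41 on slide 2. With 3 rats of each group on a slide, the part of the slide and of the individual rats in these opposite directions was not tested.

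The ratio of 2 guides within an array is not changed by a scaling that divides the array by 1 number, although quantile normalization, under which the ratios were not tested, can change it, and 0 of the 10 pairs had a difference between the diets with an adjusted p under 0.05. The exact two-sided permutation test gave adjusted p between 0.850 and 0.916 over the 10 pairs. The ratio of miR-30d to miR-30a had a log2 difference of -0.026 ± 0.048 (SE). The ratio of miR-30e to miR-30a had a log2 difference of -0.25 ± 0.24 (SE), and of -0.018 without H3. For guides of 1 gene pair, the difference was -0.072 ± 0.085 (SE) for miR-30c to miR-30a and -0.011 ± 0.11 (SE) for miR-30d to miR-30b-5p. For miR-30e to miR-30c it was -0.18 ± 0.18 (SE). Without H3 these differences were 0.0034, -0.059 and -0.022.

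Among the 6 passenger strands tested, 5 were lower and 1 was higher in high fat rats under the main scaling, beside 79.8% lower for all tested miRNAs, and 0 had an adjusted p under 0.05. With no scaling, 1 was lower and 5 were higher. miR-30e* had scaled signals of 516 to 837 in control rats (median 551) and 369 to 662 in high fat rats (median 507), with the lowest value in H3. Its log2 difference was -0.30 ± 0.18 (SE; limma, adjusted p = 0.685). With the arrays scaled anew it was -0.13 without H3 and -0.083 without the control rat H10. With the scaling kept it was -0.21 without H3. miR-30a* ranged from 414 to 736 in control rats (median 520) and from 367 to 771 in high fat rats (median 539), with the highest value in H3 and a log2 difference of -0.022 ± 0.23 (SE; limma, adjusted p = 0.985).

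The passengers that differ between the miR-30c genes were detected at different distances from the floor. miR-30c-2*, from the chromosome 9 gene, was detected on all arrays at 55.5 to 90.2 signal units in control rats (median 69.4) and 52.5 to 104 in high fat rats (median 70.9). Its log2 difference was -0.028 ± 0.19 (SE; limma, adjusted p = 0.977). Without H3 it was 0.025 with the arrays scaled anew and -0.057 with the scaling kept. miR-30c-1*, from the chromosome 5 gene, was detected on 11 arrays at 5.43 to 9.26 signal units in control rats (median 8.0) and up to 8.49 in high fat rats, with a median of 5.17, at the floor. Its log2 difference was -0.43 ± 0.17 (SE; limma, unadjusted p = 0.0264, adjusted p = 0.685), the passenger with an unadjusted p under 0.05. Its size was set in part by the floor, where 4 of the 6 high fat rats lay, and was -0.82 with a floor 4 times lower and -0.21 with no scaling. The unadjusted p was not under 0.05 in 11 of the 26 alternatives that gave a value, 6 of which left out 1 rat (C60, C51, H3, C25, H20 or A37), and reached 0.335 with no scaling. miR-30d* was also near the floor, at no more than 8.16 signal units in any rat, with a log2 difference of 0.14 (limma, adjusted p = 0.722). That difference was 0.46 with a floor 4 times lower and 0.37 with no scaling. Without H3 it was 0.24 with the arrays scaled anew and 0.15 with the scaling kept. miR-30b-3p lay between 12.1 and 30.2 signal units and had a log2 difference of -0.11 (limma, adjusted p = 0.881). Without H3, its difference was -0.032 when scaled anew and -0.11 with the scaling kept. For the log2 ratio of a passenger to its guide, 0 of the 6 pairs had an adjusted p under 0.05 between the diets (exact two-sided permutation test, adjusted p between 0.753 and 0.810).

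Rat H3 had the pattern that set miR-30e apart from the other guides. Its miR-30a stood at 9031 signal units against 4792 to 8694 in the other 5 high fat rats, and its miR-30d at 1401 against 780 to 1205, each the highest of the 12 rats. Its miR-30b-5p, at 2937, was the third highest of the 12 and above the 2239 to 2745 of the other high fat rats. Its miR-30c, at 5898, lay within their 4332 to 7628. Its miR-30e, at 2444, was the lowest of the 12.

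The log2 ratio of miR-30e to miR-30a, whose guides differ by the C13U substitution shown above, was 1.41 lower in H3 than the mean of the other 5 high fat rats, which is 2.65 times lower. The other 5 rats deviated from that mean by -0.16 to 0.14, and the 6 control rats deviated from the control mean by -0.089 to 0.15. The ratio of miR-30e to miR-30d was 1.45 lower in H3, and the ratio of miR-30e to miR-30b-5p was 1.16 lower. Within the chromosome 5 pair, the ratio of miR-30e to miR-30c was 0.95 lower, and within the chromosome 9 pair the ratio of miR-30c to miR-30a was 0.45 lower. Of the passengers, miR-30a* was the highest of the 12 rats at 771 signal units, and miR-30e* the lowest at 369, while miR-30d*, miR-30b-3p and miR-30c-2* in H3 lay within the range of the other high fat rats. H3 was among the 4 high fat rats whose miR-30c-1* lay at the floor.

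These shifts were moderate beside the rest of that array. Of the 162 miRNAs detected on all arrays, 33 were further below the other high fat rats than miR-30e in H3, whose log2 difference was -0.91. In the other direction, 21 were further above them than miR-30a, whose log2 difference was 0.49. The median of the 162 was -0.20. H3 was also the rat with the low slow fibre and vessel miRNAs given above, and the part of the cell or fibre make-up of that sample in its miR-30 levels was not tested.

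**Figure D3:**
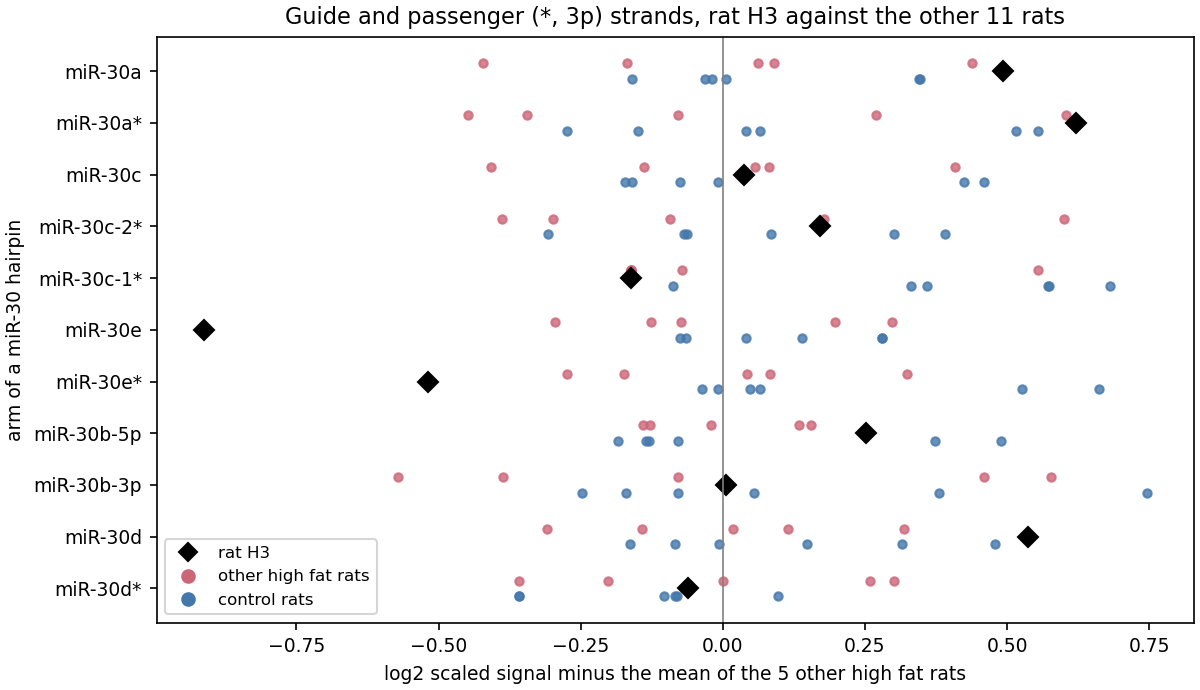
Log2 scaled signal of each arm of the miR-30 hairpins (vertical axis) minus the mean of the 5 other high fat rats (horizontal axis), with rat H3 as black diamonds, the other high fat rats in red and the control rats in blue. Both arms of miR-30e lie to the left of all other rats in H3, at -0.91 and -0.52, and both arms of miR-30a lie to the right of them, at 0.49 and 0.62.

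The pairs of guides without miR-30e had high correlations from rat to rat under the main scaling. For the 6 pairs without miR-30e, Pearson's r of the log2 scaled signal over the 12 rats lay between 0.73 and 0.96 (100000 permutations, adjusted p over the 10 pairs at most 0.0114), with Spearman's rho between 0.48 and 0.94. By rho, the 3 pairs among miR-30a, miR-30c and miR-30d had an adjusted p of at most 0.00763, and the 3 pairs with miR-30b-5p had adjusted p of 0.119 to 0.164 and did not pass. The highest r was that of miR-30a with miR-30d (0.96), and without H3 that of miR-30a with miR-30c (0.97, beside 0.94 for miR-30a with miR-30d). For the 4 pairs with miR-30e, r lay between -0.038 and 0.48 (adjusted p between 0.166 and 0.913) and rho between 0.31 and 0.64 (adjusted p between 0.0733 and 0.320). Without H3, and with the scaling kept, r lay between 0.75 and 0.90 for the pairs with miR-30e and between 0.71 and 0.97 for the others (permutation test, adjusted p at most 0.0150), so the apparent separation of miR-30e rested on that rat. Leaving out the 2 rats farthest from the median of the first guide of a pair gave 0.52 to 0.97 for the pairs without miR-30e. For miR-30e with miR-30a and with miR-30d, where H3 was among the 2, r was then 0.84 and 0.78, and with miR-30b-5p and miR-30c, where H3 stayed in, it was -0.30 and 0.34. As a measure of the array-wide level, the median r over all 13041 pairs of the 162 miRNAs detected on all arrays was 0.22, and 0.51 with no scaling.

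On slide 1, r over 6 rats lay between 0.53 and 0.97 for the pairs without miR-30e and between -0.67 and 0.19 for those with it. On slide 2, which does not hold H3, these ranges were 0.97 to 1.00 and 0.92 to 0.97. Within the control rats the pairs with miR-30e had r of 0.77 to 0.89, and the others 0.85 to 0.98. Within the high fat rats, H3 included, these were -0.32 to 0.40 and 0.53 to 0.98. The covariation also depended on the scaling, which all members of an array share. An adjusted p under 0.05 was given for 6 of the 10 pairs under the main scaling, for 10 with the 75th percentile taken over all miRNAs, and for 1, miR-30a with miR-30d, when each array was divided by its summed signal. The pair of miR-30a and miR-30d kept r between 0.80 and 0.99 under the 6 other settings of scaling and source table. The source table holds the same values, so that setting could only repeat the main one.

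**Figure D4:**
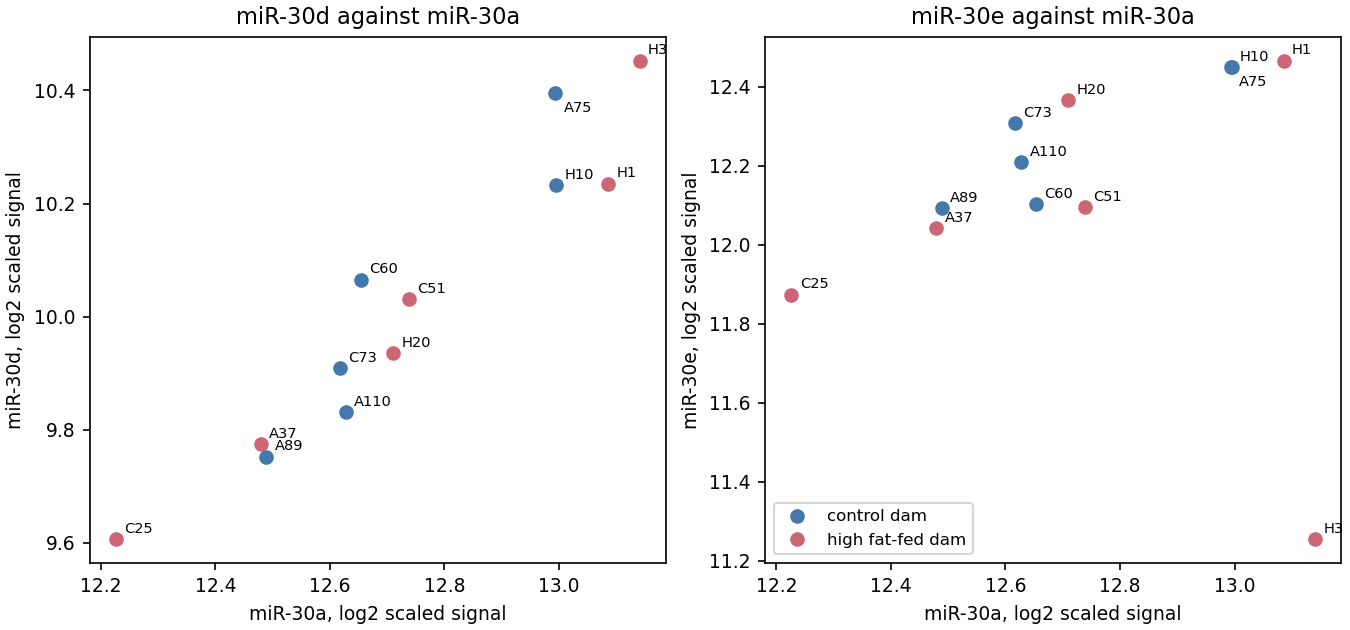
Log2 scaled signal of miR-30d (left) and miR-30e (right) against that of miR-30a, 1 point per rat, with control rats in blue and high fat rats in red. miR-30d follows miR-30a over all 12 rats, while miR-30e follows it in 11 rats and rat H3 lies at the lower right.

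**Figure D5:**
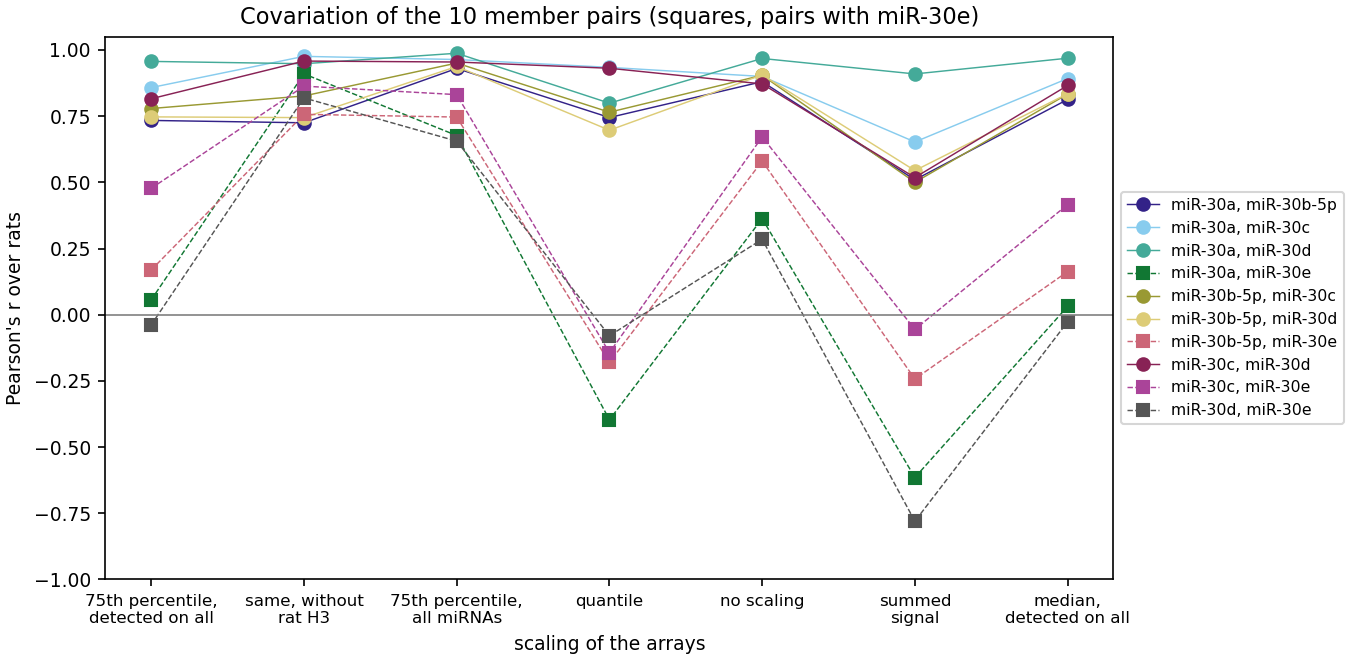
Pearson's r over rats (vertical axis) of the 10 pairs of miR-30 guides under each scaling of the arrays (horizontal axis), with squares and dashed lines for the 4 pairs with miR-30e. The pairs without miR-30e stay at 0.50 or above, and those with miR-30e range from -0.78 with division by the summed signal to 0.91 without rat H3.

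The scanner software gave each guide signal an error of 7.16 to 8.86% of the signal, which covers 1 array and neither the rats nor the labelling. On the log2 scale the within-group SD over rats was 0.24 to 0.33, which is 1.88 to 2.80 times that array error. miR-30b-5p had the smallest SD, 0.24, and miR-30e the largest, 0.33. Without H3, miR-30e had the smallest SD of the guides, 0.20, and miR-30c the largest, 0.29. The median SD of the 162 miRNAs detected on all arrays was 0.33, and 0.29 without H3.

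Among 182 tested miRNAs outside the family, those whose log2 scaled signal was most like the mean of the 5 guides over the 12 rats were miR-133b (r = 0.90), miR-133a* (0.86), miR-378* (0.85), miR-26a (0.81) and miR-22 (0.81). These values describe the likeness over 12 arrays that share their scaling, and no test was made. Without H3, and with the scaling kept, the 5 most alike were miR-1 (0.95), miR-133b (0.93), miR-26a (0.91), miR-29c* (0.91) and miR-128 (0.89), of which 2 were in the first 5. With each array divided by its summed signal, miR-133b had r = 0.52 and miR-22 -0.0095. After quantile normalization miR-133b had r = -0.45.

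miR-29a, miR-29b, miR-29c, miR-133a and miR-133b, which like miR-30 are known to repress matrix genes or connective tissue growth factor, were compared between the diets as the other miRNAs of that pathway. All 5 were detected on all arrays, 4 were lower and 1 was higher in high fat rats, and the median log2 difference was -0.034 beside -0.17 for all tested miRNAs. Without H3, and scaled anew, 1 was lower and 4 were higher, with a median of 0.035 beside -0.034 for all tested miRNAs. That turn depended on the new scaling as well as on H3. Without H3 but with the scaling kept, the differences were 0.0070 for miR-29a, 0.11 for miR-29b and -0.047 for miR-29c. For miR-133a and miR-133b they were then -0.070 and -0.13. None had an adjusted p under 0.05 (limma, adjusted p between 0.874 and 0.977) and 0 had an unadjusted p under 0.05. miR-29a ranged from 14510 to 16773 signal units in control rats (median 16180) and from 13675 to 19459 in high fat rats (median 15547). Its log2 difference was -0.027 ± 0.12 (SE), the groups overlapping throughout. miR-133b, a muscle miRNA, ranged from 63458 to 113448 signal units in control rats (median 77039) and from 58477 to 100959 in high fat rats (median 77544), with a log2 difference of -0.062 ± 0.20 (SE).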

How the data were processed

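Per the labels and methods, soleus total RNA was Cy3-labelled (100 ng) and hybridised to 1 Agilent array per rat. The authors deposited each miRNA's total signal intensity with its error and a detection flag, background-subtracted and combined over spots by the scanner software, whose version is not given in the sources used here, without normalization between arrays. The deposited series table held the same intensity for all 8124 values. An undetected miRNA was listed at 0.1. The study's text gives other numbers of rats without naming those left out, so all 12 were used.

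The 22 control rows were dropped. Scaling and floor are described above. Diets were compared in limma 3.58.1 (R 4.3.3), with Benjamini-Hochberg adjustment over 193 miRNAs, after the script was tested on simulated data. Single values were compared by exact permutation and correlations by 100000 permutations (Python 3.11.15). The number of arrays limits the precision. Tests were repeated under 28 alternatives covering scaling, floor, detection filter, blocks, other tests, the series table and each rat left out. The series table holds the same values, so that alternative could only repeat the main result.

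The members, lists and tests were chosen with earlier results of these data known. Named miRNAs were the guides, their passengers, others with the seed, the matrix-repressing list, the 5 most like the guides, and markers where a result turned on them. Of the marker lists, miR-208b entered as miR-208b-3p and miR-486 was not analysed here. The diet by slide interaction and its scalings, the scalings of the likeness and the comparison with slow fibre miRNAs were added after the data were seen. RefSeq sequences of GRCr8 were matched by name. The array files name no build.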

Additional observations from a re-analysis of the deposited data

Results flagged for a closer look

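The values of each group of 6 rats were screened for 1 rat far from the rest, for 20 miRNAs and 16 ratios, in 72 groups in all. Chance alone marks about 1 group in 20, or 3.6 here, and 7 were marked. In 6 of them the distant rat was H3 of the high fat group. They were the log2 ratios of miR-30c to miR-30a, where H3 deviated from the mean of the other 5 high fat rats by -0.45, of miR-30e to miR-30a (-1.41), of miR-30e to miR-30b-5p (-1.16), of miR-30d to miR-30c (0.50), of miR-30e to miR-30c (-0.95) and of miR-30e to miR-30d (-1.45). These ratios share miRNAs and are not 6 separate signs. The part of the low slow fibre and vessel miRNAs of H3 in them was not tested. In the remaining case, miR-30c-1* in the high fat group, rat H1 stood at 8.49 signal units, and the other 5 rats lay between 5.17, the floor, and 5.50.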

How the results depend on the processing

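The 0 adjusted calls among the guides, all tested miRNAs and both kinds of ratio remained 0 under the alternatives run, 28 for the first 2 and 14 for the ratios. Among these, the series table could only repeat the main result. Array number and the floor limit what could be seen, since miR-30c-1* and miR-30d* lay near the floor and gave no value with a floor 4 times higher. No paired analysis was possible because the rats' numbers are not shared between the groups. The directions of the small log2 differences changed with the scaling. The values of miR-30b-5p, miR-30c, miR-30d, miR-30a* and miR-30c-2* were 0.16, 0.10, 0.15, 0.15 and 0.14 where all miRNAs entered the 75th percentile, 0.16, 0.11, 0.15, 0.16 and 0.15 with centring on the median, 0.095, 0.037, 0.084, 0.087 and 0.080 with division by the summed signal, 0.30, 0.24, 0.28, 0.29 and 0.28 with no scaling, and 0.22, 0.14, 0.17, 0.11 and 0.17 with quantile normalization. miR-30b-3p was at 0.059, 0.065, 0.20 and 0.057 with the percentile of all miRNAs, the median, no scaling and quantile normalization. With no scaling, miR-30e was at 0.057 and miR-30e* at 0.014. Blocking on the label letter put miR-30a at -0.13, and array weights put it at -0.061, with miR-30b-5p at 0.016. For covarying pairs the count of 6 became 10 with the percentile of all miRNAs and 1 with division by the summed signal. With the percentile of all miRNAs, r of miR-30d and miR-30e was 0.66, and with no scaling 0.29. For miR-30e with miR-30a, miR-30b-5p and miR-30c, r was -0.40, -0.18 and -0.14 after quantile normalization and -0.62, -0.24 and -0.055 after division by the summed signal. The likeness of miR-133b was -0.45 after quantile normalization and that of miR-22 -0.0095 after division by the summed signal. The cause of these changes was not tested. With each rat left out in turn and the arrays scaled anew, the log2 differences ranged from -0.070 to 0.18 for miR-30a, from -0.052 to 0.17 for miR-30b-5p, from -0.15 to 0.12 for miR-30c, from -0.081 to 0.14 for miR-30d, from -0.12 to 0.19 for miR-30a*, from -0.23 to 0.041 for miR-30b-3p and from -0.14 to 0.16 for miR-30c-2*. Those of the ratios between guides ranged from -0.059 to 0.044 for miR-30d to miR-30b-5p, from -0.081 to 0.038 for miR-30b-5p to miR-30a, from -0.10 to 0.0034 for miR-30c to miR-30a, from -0.036 to 0.081 for miR-30d to miR-30c and from -0.31 to 0.015 for miR-30e to miR-30d. Those of the passenger to guide ratios ranged from -0.26 to 0.065 for miR-30b-3p to miR-30b-5p, from -0.012 to 0.098 for miR-30c-2* to miR-30c, from -0.080 to 0.017 for miR-30a* to miR-30a and from -0.11 to 0.011 for miR-30e* to miR-30e. For r, the ranges were -0.11 to 0.91 for miR-30a with miR-30e, -0.0074 to 0.76 for miR-30b-5p with miR-30e and -0.19 to 0.82 for miR-30d with miR-30e, and the count of covarying pairs ranged from 6 to 10, the 10 without H3. The log2 difference of miR-30e ranged from -0.34 to -0.018, with the latter without H3.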

Other observations

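The log2 ratio of miR-30e to miR-30a was set beside the slow fibre miRNAs after the low values of rat H3 were seen. Over the 12 rats, r with the log2 scaled signal of miR-499 was 0.93 (100000 permutations, adjusted p over 2 relations 0.0467) and Spearman's rho was 0.34 (adjusted p = 0.273). With miR-208b-3p, r was 0.85 (permutation test, adjusted p = 0.0467) and rho was 0.41 (adjusted p = 0.273). Without the 2 rats farthest from the median, r was 0.078 for miR-499 and 0.35 for miR-208b-3p. Without H3, over 11 rats, r was -0.053 (permutation test, adjusted p = 0.873) for miR-499 and 0.081 (adjusted p = 0.873) for miR-208b-3p. Both relations rested on H3.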
